A study of Mus musculus with 2 samples.

Results

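The FoxO transcription factors Foxo1, Foxo3 and Foxo4 and the sirtuins Sirt1 to Sirt7 were followed in long-term hematopoietic stem cells (LT-HSCs) of aged mice with and without the stress kinase p38α. The members were chosen by gene name, which gave 10 genes of the 22555 named on the array, read by 17 of its 55662 distinct probes. LT-HSCs of 2-year-old C57BL/6J mice were sorted from bone marrow as CD150+CD48-Flt3-CD34- LSK cells (lineage-negative, Sca-1+, c-Kit+ progenitors), which by the methods were also CD41-, and their RNA was hybridised to single-colour Agilent arrays. A single array was made from wild-type cells, here p38α+/+, and another from p38KO cells, here p38αΔ/Δ. By the methods, both groups carried floxed p38α alleles and both were injected with tamoxifen about 1 year before, the controls lacking the CreERT2 transgene. That transgene was driven by the ubiquitous CAG promoter, so deletion was not limited to blood cells, and the number of mice behind each array was not given in the sources used here.

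FoxO factors switch on genes for cell cycle arrest, antioxidant defence, autophagy and cell death, and leave the nucleus when the PI3K-AKT pathway phosphorylates them. They are known for keeping hematopoietic stem cells quiescent and low in reactive oxygen species. Sirtuins are NAD-dependent deacylases that act on histones, transcription factors (FoxO proteins included) and metabolic enzymes. Sirt1, Sirt6 and Sirt7 are mainly nuclear, Sirt2 is mainly cytosolic, and Sirt3, Sirt4 and Sirt5 are mitochondrial.

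No difference has a replicate check, since each genotype has 1 array, and p-values are not given. Levels are log2 signals set against each array's own 75th percentile over non-control probes, and a difference is the p38αΔ/Δ label minus p38α+/+. Its error is the scanner software's own error of both spots, about 0.20 for a bright probe, which holds no variation between mice. The 2 probes of Mapk14, which encodes p38α, read 2.34 and 2.08 on p38α+/+ against 2.31 and 2.03 on the array labelled p38αΔ/Δ. The targeted gene therefore did not differ beyond the software error, at probes whose place relative to the deleted exons is not known here, and every direction given rests on the labels. Of all probes, 40416 exceeded background clearly, by the scanner's own test, on 1 array or both (called well above background), with a median difference of 0.01 and quartiles of -0.38 and 0.41.

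Markers of the sorted cells and of other blood cells also differed between the arrays. Of 8 LT-HSC markers, 7 were lower on the array labelled p38αΔ/Δ, with a median of -0.78, led by Mecom at -1.44 (its 3 probes ran up to 0.61), Procr at -1.22 and Slamf1 (CD150) at -0.82. With another background correction, normexp, Slamf1 read -0.26, Mecom -0.93 and Procr -1.26. The summed level of the 8, in multiples of the array's 75th percentile, was 135 on p38α+/+ and 107 on the other array. Of 9 myeloid markers, 7 were higher and the sum was 36.3 against 55.0, where 52.4% of all genes were lower. The largest part of that rise came from S100a9, at 1.91 and 3.92. Elane at -1.41 and Lyz2 at -0.96 went the other way (-0.69 and -0.35 under normexp). Csf1r was higher by 0.21 at its brightest probe, but its 3 probes reached down to -2.28. All 6 B cell markers were higher, with sums of 2.64 against 17.5. Most of the rise in the B cell sum came from Jchain, at 0.18 and 3.93. The other 5 summed to 1.51 against 2.21, and Cd79b was higher by only 0.09. Among the genes gated against, Cd48 was higher by 1.37 (0.71 under normexp, and 0.19 at its other probe) and Flt3 by 0.36 (0.23 under normexp, with 3 probes from -0.07 to 0.88), while Cd34 read -0.15. T and NK cell markers summed to 15.6 against 17.7 (4 of 5 measured), a sum carried by Nkg7. Without it the other 3 summed to 3.95 against 3.15, with Cd3e higher by 1.02 and Zap70 at -4.43 (-2.13 under normexp), although another Zap70 probe read -0.03. Megakaryocyte markers summed to 26.9 against 27.4 (4 of 4), erythroid markers to 1.78 against 1.48 (4 of 5) and endothelial and stromal markers to 1.16 against 1.30 (2 of 4). Cd3g, Cdh5 and Col1a1 were above background on neither array, and of the B cell genes Ms4a1 was well above background only on the array labelled p38αΔ/Δ. The part of these marker differences in the values that follow was not tested, and fewer cells of a type cannot be told apart from less RNA per cell.

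Most FoxO and sirtuin probes read somewhat lower on the array labelled p38αΔ/Δ. Of the 17 probes, 16 were measured (well above background on 1 array or both). Of these, 13 were lower and 3 higher, where 49.6% of all probes were lower. Among the 13, Foxo4 probe 3 was a bound from a signal not well above background on 1 array. Under normexp, where the median of all probes was 0.10, Foxo4 probes 1 and 3 (0.05 and 0.10) and Sirt7 probe 1 (0.01) left the lower side. The median over the 16 was -0.35, with quartiles of -0.49 and -0.15. The sizes were small: 1 probe, of Sirt7, was at least 2-fold lower, where 7.52% of all probes were, and 0 were at least 2-fold higher, where 6.32% of all probes were. Of the 15 probes well above background on both arrays, 9 were lower by more than the software error and 3 higher by more than it, against 33.9% and 34.3% of all 35798 such probes. The members' differences, from -1.34 to 0.40, lay between the 4.24th and 74.7th percentiles of all probes.

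**Figure D1:**
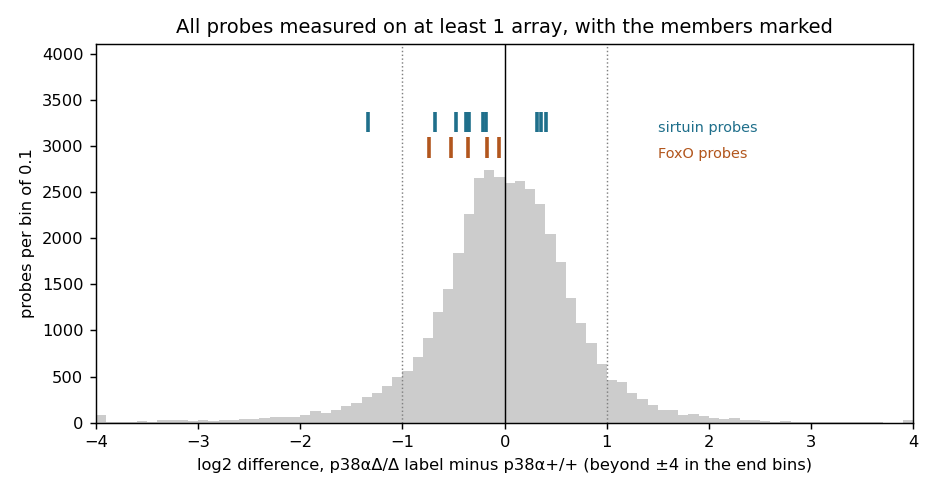
Histogram of the log2 difference (p38αΔ/Δ label minus p38α+/+) of all 40416 measured probes, in bins of 0.1; the ticks above it are the 5 FoxO probes and 11 sirtuin probes, and the dotted lines mark 2-fold. All 5 FoxO ticks and 8 of the 11 sirtuin ticks lie left of 0, and 1 sirtuin tick, of Sirt7, lies beyond the left dotted line.

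The count depends on how a gene with several probes is read. At the brightest probe of each gene, 8 of the 10 genes were lower and 2 higher, Sirt4 and Sirt7, against 52.4% lower among 17201 measured genes. The median was then -0.19, against -0.03 over all genes. None of the 10 passed 2-fold at that probe, where 6.71% of genes were lower by 2-fold or more and 4.1% were higher by as much.

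**Figure D2:**
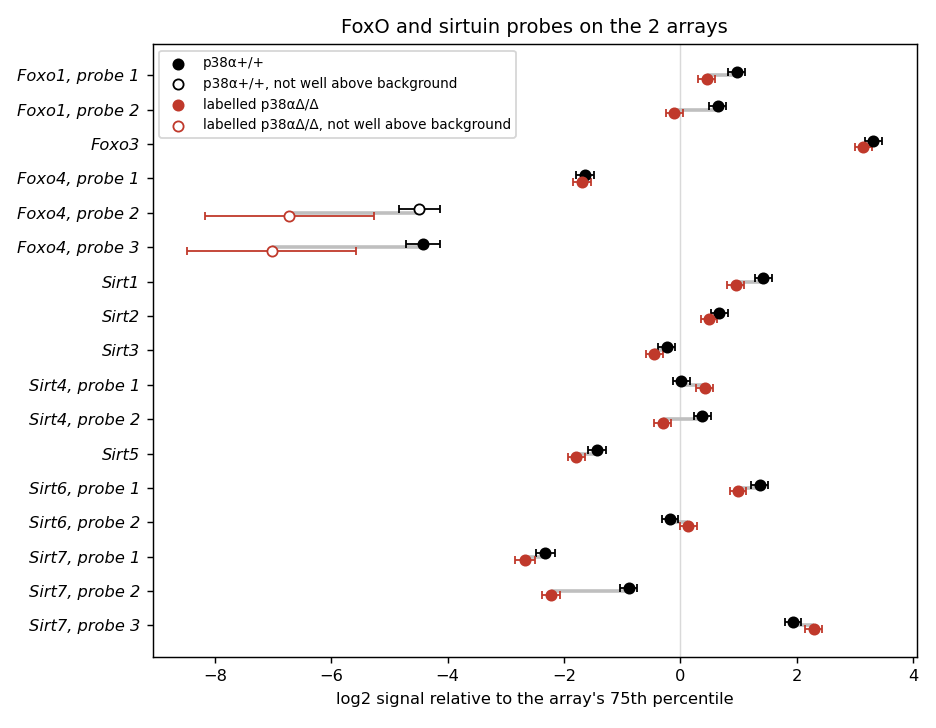
Level of each FoxO and sirtuin probe (log2 signal over the array's 75th percentile) on the p38α+/+ array (black) and the array labelled p38αΔ/Δ (red), with the scanner software's error as bars, probes of a gene numbered from its 5′ end and open circles for signals not well above background. Foxo3 reads 3.32 and 3.14, the Foxo1 pairs stand apart, and the probes of Sirt4, Sirt6 and Sirt7 do not all shift to the same side.

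The 5 genes with several probes are introduced by probe sequences, because in 3 of them the probes went opposite ways and a reader can see which stretch of transcript a probe reads. Each line gives the first 30 bases of the 60-base probe, 5′ to 3′ in the sense of the transcript, with mm9 coordinates of the whole probe. Whether a probe lies in a coding exon or an untranslated region was not determined, as no mm9 annotation was used here. Capitals mark the run seen in both Foxo4 lines, part of the overlap of the 2 probes.
Foxo1 probe 1 (chr3:52150183-52150242, plus strand): ttcggaatgacctcatggatggagatacct
Foxo1 probe 2 (chr3:52153289-52153348, plus strand): ttctgggagaatgttcgctttctggtctat
Foxo4 probe 2 (chrX:98454966-98455025, plus strand): actttagaGCTAAGGATTGGTGGCAACACA
Foxo4 probe 3 (chrX:98454974-98455033, plus strand): GCTAAGGATTGGTGGCAACACActcaagtg
Sirt4 probe 1 (chr5:115929657-115929716, minus strand): ctggattcccgctgtggagagttgctgcct
Sirt4 probe 2 (chr5:115928163-115928222, minus strand): cagaagtcagtaaaccacaactgtctatga
Sirt6 probe 1 (chr10:81084850-81084909, minus strand): gcctctactgtagtagggacagcgggcagg
Sirt6 probe 2 (chr10:81084531-81084589, minus strand): gccccaggctcccagaagctcccaatgcaa
Sirt7 probe 1 (chr11:120485809-120485868, minus strand): aactggccggagctgtccgaagtgccaggc
Sirt7 probe 2 (chr11:120480463-120480522, minus strand): gtcccctgcagcttggtgtcactgacgctg
Sirt7 probe 3 (chr11:120479736-120479795, minus strand): gtacaagtgttcactttatagaagcctttt

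Foxo1, the FoxO factor best known for its roles in lymphocytes and metabolism, had the largest FoxO differences among those measured on both arrays. Its probe 1 gave an intensity of 281 for p38α+/+ and 157 for the array labelled p38αΔ/Δ, or levels of 0.97 and 0.45, a difference of -0.52 ± 0.20 (software error) and a 1.44-fold lower signal. Probe 2, 3106 bases further along the gene, gave 223 and 107, or 0.64 and -0.10, a difference of -0.74 ± 0.20 and a 1.67-fold lower signal. Both Foxo1 probes were lower on the array labelled p38αΔ/Δ by more than the software error, and their differences lay 0.22 apart, closer than the median gene with several probes (0.50 over 4498 genes). Among all probes the pair stood at the 18.7th and 12.0th percentiles of the difference, so larger falls were common on this array.

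Foxo3, the factor whose loss in mice is known to deplete the stem cell pool with age, differed little. Its probe (chr10:41905610-41905669, minus strand) gave intensities of 1430 and 1016, or levels of 3.32 and 3.14, a difference of -0.18 ± 0.20. The difference was within the software error and stood at the 37.9th percentile. It ranged from -0.21 to -0.08 over 7 other ways of scaling or correcting the arrays.

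Foxo4 gave low signals at every probe. Probe 1, designed on an Ensembl transcript, gave intensities of 46.1 and 35.6, or levels of -1.64 and -1.69, a difference of -0.05 ± 0.22. Probe 2 gave 6.39 and 1.09, on neither array well above background, and therefore has no fold. Probe 3, which shares 52 of its bases with probe 2, gave 6.67 on p38α+/+, where it was well above background, and 0.882 on the array labelled p38αΔ/Δ, where it was not. Its signal there was at least 1.28-fold lower. The 2 overlapping probes count as a single stretch of transcript, and neither adds to what probe 1 shows. Under normexp, Foxo4 probe 1 read 0.05 and probe 3 read 0.10, so Foxo4 had no direction that held.

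Among the nuclear sirtuins, Sirt1, which deacetylates FoxO proteins, p53 and histones, has 1 probe (chr10:62781827-62781886, minus strand). It gave intensities of 386 and 222, or levels of 1.43 and 0.95, a difference of -0.48 ± 0.20 and a 1.39-fold lower signal. This was more than the software error, and the value stayed between -0.48 and -0.44 under 7 other settings.

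Sirt6, a chromatin deacylase with known roles in DNA repair and telomere maintenance, gave opposite readings. Probe 1 gave 368 and 228, or 1.36 and 0.99, a difference of -0.37 ± 0.20. Probe 2, only 320 bases further along, gave 127 and 126, or -0.18 and 0.13, a difference of 0.31 ± 0.20. Each was past the software error in its own direction, and the 2 lay 0.69 apart, at the 63.2nd percentile of such ranges. Sirt6 therefore had no single direction on these arrays.

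Sirt7, a nucleolar sirtuin known for its part in ribosomal DNA transcription and in restraining mitochondrial protein stress in stem cells, had the widest spread of the members. Probe 1 gave intensities of 28.7 and 18.0, or levels of -2.32 and -2.67, a difference of -0.35 ± 0.23. Probe 2, 5346 bases on and designed on an Ensembl transcript, gave 77.7 and 24.7, or -0.88 and -2.22, a difference of -1.34 ± 0.21 and a 2.52-fold lower signal. Probe 3, 6073 bases from the first, gave 549 and 563, or 1.94 and 2.29, a difference of 0.35 ± 0.20.

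The bright 3′ Sirt7 probe was thus higher on the array labelled p38αΔ/Δ, while both dim probes were lower. The range of 1.69 between them stood at the 94.0th percentile among genes with several probes. Under normexp the middle probe read -0.54 and the first 0.01. The single fall past 2-fold among all members, at a dim probe, was therefore not kept under that setting. The part of the constant that normexp adds to every signal was not separated from that of its background correction. The bright probe stayed between 0.29 and 0.42 under every setting tried.

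Sirt2, the mainly cytosolic tubulin deacetylase, has 1 probe (chr7:29573375-29573434, plus strand). It gave intensities of 228 and 162, or levels of 0.67 and 0.49, a difference of -0.18 ± 0.20. This was within the software error.

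The mitochondrial sirtuins were lower at 3 of 4 probes, with a median of -0.28. Sirt3, the main mitochondrial deacetylase (chr7:148049581-148049640, minus strand), gave intensities of 122 and 84.5, or levels of -0.24 and -0.45, a difference of -0.21 ± 0.21. Sirt5, which removes succinyl and malonyl groups (chr13:43490351-43490410, plus strand), gave 53.0 and 33.3, or -1.44 and -1.79, a difference of -0.35 ± 0.21. Sirt3 was at the edge of the software error, and Sirt5, past it here, read -0.05 under normexp.

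Sirt4, a mitochondrial regulator of glutamine and fatty acid use, was again split by probe. Probe 1 gave intensities of 145 and 154, or levels of 0.01 and 0.42, a difference of 0.40 ± 0.20, the highest of all members. Probe 2, 1494 bases further along, gave 186 and 93.4, or 0.38 and -0.30, a difference of -0.68 ± 0.20 and a 1.60-fold lower signal. The probes lay 1.08 apart, at the 81.6th percentile, and neither changed sign under any setting.

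**Figure D3:**
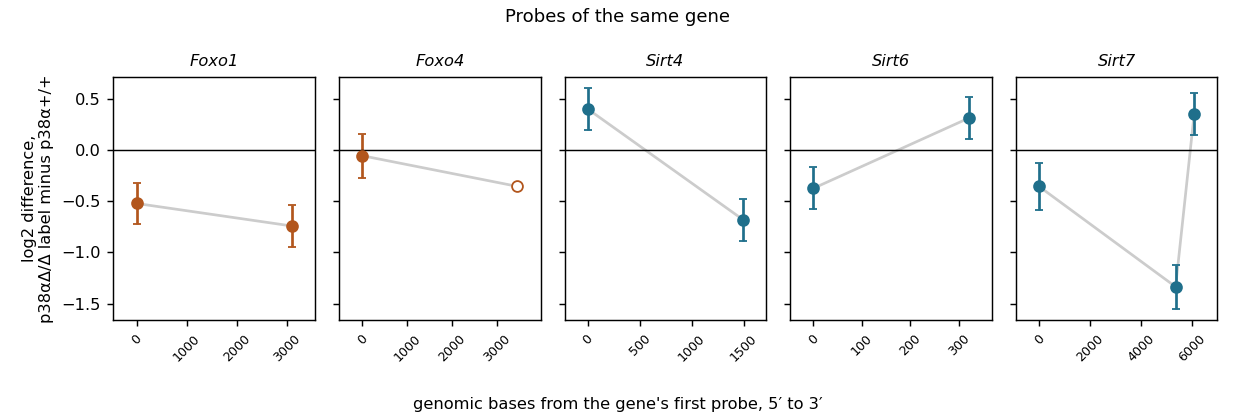
Log2 difference (p38αΔ/Δ label minus p38α+/+) of each probe against its distance in genomic bases from the gene's 5′-most probe, for the 5 genes with several probes; bars are the software error and the open circle is a bound from a signal not well above background on 1 array. The Foxo1 probes lie on the same side of 0, while Sirt4 runs from 0.40 to -0.68, Sirt6 from -0.37 to 0.31 and Sirt7 from -1.34 to 0.35.

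The position of a probe did not order these readings. The 3′-most probe was the lower one in Foxo1 (by 0.22) and Sirt4 (by 1.08) and the higher one than the 5′-most in Sirt6 (by 0.69) and Sirt7 (by 0.71). Over all 4498 genes with several probes, the 3′-most probe was above the 5′-most in 55.3%, with a median of 0.07.

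**Figure D4:**
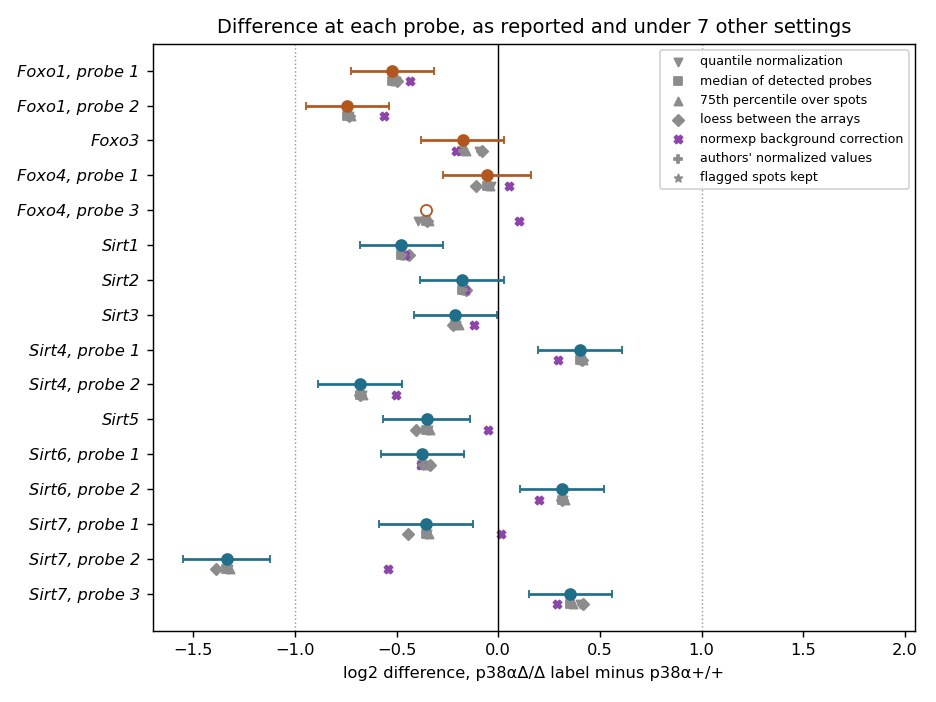
Log2 difference (p38αΔ/Δ label minus p38α+/+) of each measured FoxO (brown) and sirtuin (blue) probe, with the software error as bars and a bound as an open circle; the smaller symbols beneath are the same difference under 7 other settings, with normexp in purple and dotted lines at 2-fold. Normexp moves Sirt7 probe 2 from -1.34 to -0.54 and Sirt5 from -0.35 to -0.05, while both Foxo1 probes, Sirt1 and both Sirt4 probes keep their side of 0 under every setting.

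The zinc-dependent histone deacetylases, the other deacetylase family, served as the closest comparison. Of 11 genes at their brightest probe, 6 were lower and 5 higher, where 52.4% of all genes were lower. Their median was -0.01, against -0.19 for the FoxO and sirtuin genes. Averaging each gene's probes instead turned the order round, with a median of -0.27 for the histone deacetylases and -0.21 for the FoxO and sirtuin genes. Hdac1, a core subunit of repressor complexes, read 3.22 and 2.54, a difference of -0.68, its partner Hdac2 -0.45, and Hdac11, dim on both arrays, -1.25 (-0.22 under normexp). Hdac9 was higher by 0.73, although another of its probes read -1.39, and Hdac7 was higher by 0.34 and Hdac8 by 0.23, with another Hdac8 probe at -0.77. The difference between the 2 families was not tested.

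Listed targets of FoxO factors did not shift to one side, in a list not divided by whether FoxO factors raise or lower a gene. Of 38 listed targets, 36 were measured, with 20 lower and 16 higher and a median of -0.08. Over all genes, 52.4% were lower and the median was -0.03. Past 2-fold, 1 target was lower and 4 were higher, where 6.71% of all genes were lower by as much and 4.1% were higher. The cell cycle inhibitor Cdkn1a (p21) read -3.68 and -1.26, a difference of 2.42, although its 3 probes ran from 0.09 to 2.42 and normexp gave 0.86. Klf2, a quiescence factor of lymphocytes, read 3.27 and 4.47, a difference of 1.20. The death gene Bcl2l11 (Bim) read -2.72 and -1.58, a difference of 1.14 (0.50 under normexp).

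At the other end, Depp1, a FoxO-induced regulator of autophagy, read -2.11 and -4.34, a difference of -2.22, or -0.36 under normexp. Pdk4, which inhibits pyruvate dehydrogenase, read -1.43 and -2.41, a difference of -0.98 (-0.33 under normexp). Txnip, an inhibitor of thioredoxin and of glucose uptake, was bright, at 2.72 and 1.85, and lower at both of its probes, by -0.87 and -0.59. The antioxidant gene Sod2, shared with the list of mitochondrial substrates, read 2.68 and 2.43, a difference of -0.26.

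Promoters were searched for the FoxO binding motif GTAAACA on both strands, from 250 bases before to 50 after the start site, in RefSeq promoters of GRCm38.p6. It occurred in 5 of 30 listed targets with a promoter (16.7%), Bcl2l11, Bbc3, Sesn1, Txnip and Trim63, and in 4.05% of 27025 genes. Of the 9 members with a promoter in that table it occurred in 0, and the shorter TAAACA, which GTAAACA contains, in Sirt3 alone, against 15.1% of all genes. The matches of Bcl2l11, Txnip and Bbc3 lie upstream of the start site and are shown because their genes read higher, lower and level on the array labelled p38αΔ/Δ. Capitals mark the motif or its reverse complement TGTTTAC.
Bcl2l11 (chr2:128125788-128125844, plus strand, motif 227 bases before the start): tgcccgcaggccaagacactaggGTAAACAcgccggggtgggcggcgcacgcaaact
Txnip (chr3:96557809-96557869, plus strand, motif 121 bases before the start): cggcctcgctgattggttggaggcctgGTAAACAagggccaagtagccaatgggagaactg
Bbc3 (chr7:16310067-16310127, plus strand, motif 167 bases before the start): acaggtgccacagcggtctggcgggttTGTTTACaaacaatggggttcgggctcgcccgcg

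The 4 measured genes with the motif did not share a direction. Bcl2l11 was higher by 1.14, Txnip read -0.87, the p53-regulated antioxidant gene Sesn1 -0.28, and Bbc3 (Puma, a death gene) 0.03, while Trim63 was well above background on neither array. A match of letters is not evidence of binding in these cells.

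Regulators of FoxO factors were evenly divided, with 12 lower and 11 higher of 23, none past 2-fold, and a median of -0.01. Ywhab, one of the phosphoprotein-binding adaptors that hold FoxO proteins in the cytoplasm, read 2.70 and 2.00, a difference of -0.71. The catalytic subunit gene Pik3ca read -0.69 (-0.33 under normexp) and the arginine methyltransferase Prmt1 -0.27. The acetyltransferase Ep300 was higher by 0.39 and the ubiquitin ligase subunit Skp2 by 0.29 (0.18 under normexp).

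Genes of NAD supply and use, on which sirtuin activity depends, were mostly slightly lower. Of 18 listed, 16 were measured, 14 of them lower and 2 higher, with a median of -0.17, where 52.4% of all genes were lower. Under normexp 10 were lower and 6 higher, where 44.3% of all genes were lower, and the median was -0.18. Cd38, an NAD-consuming surface enzyme, read 1.41 and 0.70, a difference of -0.71. Parp1, the NAD-consuming DNA damage sensor, read 0.94 and 0.42, a difference of -0.52, and Qprt of de novo synthesis read 0.64 and 0.22, a difference of -0.42. The rate-limiting salvage enzyme Nampt read 2.07 and 1.96, a difference of -0.11, within the software error. The 2 higher genes were Parp10, by 0.25, and Nadk, by 0.04 with another probe at -0.72. Nmnat2, an enzyme of NAD synthesis best known in neurons, cleared background on the p38α+/+ array only and was at least 6.80-fold lower on the other, though normexp gave a difference of -0.40.

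Partners and nuclear substrates of sirtuins had 9 lower and 4 higher of 13 measured, where 52.4% of all genes were lower. Their median was -0.22 (-0.09 under normexp), against -0.03 over all genes (0.05 under normexp). Trp53 (p53), a substrate of Sirt1, read 2.96 and 2.44, a difference of -0.52, the deubiquitinase Usp22 -0.48 (-0.29 under normexp) and the repair gene Xrcc6 (Ku70) -0.31. The inflammasome gene Nlrp3 was higher by 0.91 (0.45 under normexp). Nrf1, a transcription factor for mitochondrial genes and a partner of Sirt7, was higher by 0.50 at its brightest probe, but its 3 probes reached down to -1.49. Hif1a was higher by 0.05, with another probe at 2.29.

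Genes for mitochondrial sirtuin substrates had 10 lower and 5 higher of 15 measured, where 52.4% of all genes were lower. Their median was -0.02, against -0.03 over all genes. Aldh2, which clears aldehydes that damage stem cell DNA, stood out at 2.45 and 0.56, a difference of -1.89, or 3.70-fold lower, and -1.67 under normexp. The complex I subunit Ndufa9 read -0.45 and the one-carbon enzyme Shmt2 -0.39. Acss1 was higher by 0.43, while Sdha (0.02) and Mlycd (0.00) were level.

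Genes of the mitochondrial unfolded protein response, the stress programme linked to Sirt7 in stem cells, were lower in 9 of 10 (8 of 10 under normexp), with a median of -0.29. Over all genes, 52.4% were lower (44.3% under normexp), with a median of -0.03. Of the 9, Hspd1 (-0.10) and Dnaja3 (-0.01) were within the software error, and Hspa9 (-0.22) was just past it. The chaperone Trap1 read -0.08 and -0.81, a difference of -0.73 (-0.48 under normexp), Ddit3 (CHOP) -0.40 (-0.23 under normexp) and the protease Htra2 -0.40, with another Htra2 probe at 0.06. The protease Lonp1 was the exception, higher by 0.36. None of the 10 passed 2-fold, where 6.71% of all genes were lower by as much and 4.1% were higher. The brightest probe of Sirt7 itself was higher by 0.35, while its other probes read -0.35 and -1.34.

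**Figure D5:**
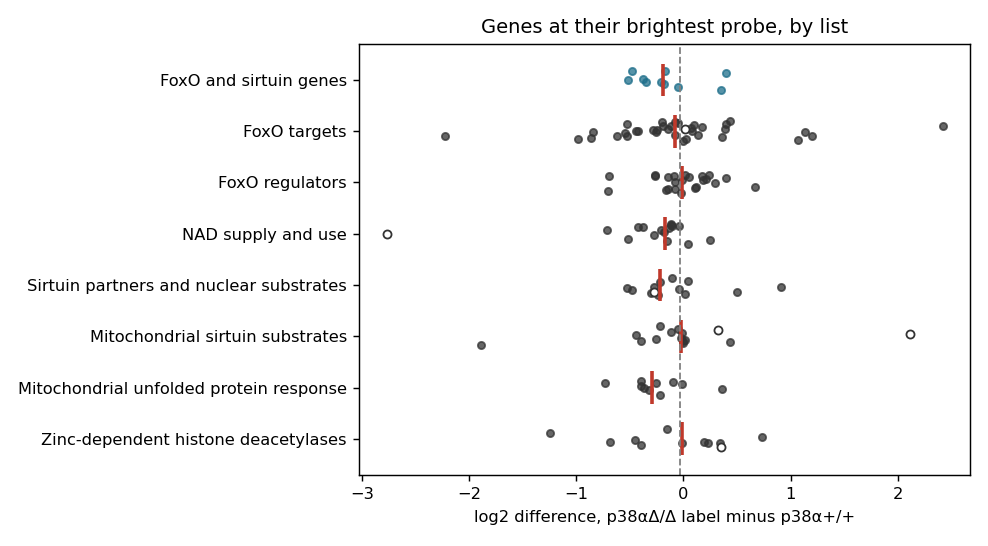
Log2 difference (p38αΔ/Δ label minus p38α+/+) of each measured gene at its brightest probe, by list, with open circles for genes well above background on 1 array only, red bars for list medians and a dashed line for the median of all 17201 genes. The medians of the FoxO and sirtuin genes (-0.19), NAD genes (-0.17), sirtuin partners (-0.22) and unfolded protein response genes (-0.29) lie left of the dashed line at -0.03, and single genes such as Depp1 and Cdkn1a lie far from their lists.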

How the data were processed

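The authors deposited, per array, the scanner's processed intensity of 59305 spots with a software error and flags, made by Agilent Feature Extraction 11.5.1.1 and not normalized between arrays. They also deposited normalized log2 values of 35795 probes, each column being the log2 signal minus a constant (7.16 for p38α+/+, 6.84 for p38αΔ/Δ), with column medians of -0.79 and -0.79, and holding 15 of the 17 member probes. Here, control spots and 19 probes with outlier flags were left out, log2 signals were averaged per probe, and each array was set to its 75th percentile (Python 3.11.15, pandas 2.3.3). Probes well above background numbered 37789 (67.9%) and 38425 (69.0%), and 0 were saturated. A dim signal took the array's lowest well-above-background signal, where that was higher, so a fold with such a side is a bound. Each member probe was 1 spot per array. The software error covers that spot only. Among repeated probes, the SD of a single-spot difference was 0.08 above a level of 1, 0.20 between levels of -3 and -1 and 0.49 under -3. Normexp used limma 3.58.1 with an offset of 50, added to every signal before scaling. The part of that constant in the normexp values of dim probes was not separated from that of the background correction. The steps were tested on simulated data. Of each list, the 3 largest falls and rises measured on both arrays were named, apart from a few items that are not reported here; Sod2, Nampt, the genes with a motif and those measured on 1 array were added after their values were seen. The members and lists were chosen with earlier results of these data known. The number of arrays limits the precision.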

Additional observations from a re-analysis of the deposited data

How the results depend on the processing

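No paired analysis was possible because each genotype has 1 array, and no replicate could be left out. The members' median of -0.35 ranged from -0.35 to -0.14 over 12 alternatives and kept its sign in each. The value of -0.14 came from normexp, which moved the median of all probes to 0.10. The count of member probes at least 2-fold lower, 1 as reported, was 0 with normexp and 3 with a threshold of 1.5-fold. The count at least 2-fold higher was 0 in all 10 alternatives. The histone deacetylase median of -0.01 became -0.27 when each gene's probes were averaged. The medians of the FoxO regulators, mitochondrial substrates and histone deacetylases, both Mapk14 differences, both measured Foxo4 probes and Sirt7 probe 1 lay close enough to 0, or dim enough, to change sign under some settings. The cause was not tested, and low signal limits what the dim Foxo4, Sirt5 and Sirt7 probes can show.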
